A study of Homo sapiens and Canis lupus familiaris with 27 samples.

Results

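The set described here held 9 genes of the chromosomal passenger complex and of cytokinesis: AURKB, INCENP, BIRC5, CDCA8, PRC1, RACGAP1, ECT2, ANLN and CIT. They were chosen by name from the gene count tables of 3 prostate carcinoma cell lines. All 9 were among the 23708 genes of the PC-3 and LNCaP tables, and 8 were among the 16028 genes of the CT1258 table, which held no row named BIRC5. A row named BIRC5_CANFA in that table was not counted as a member and is given separately. The filter on low counts kept 13777 of the PC-3 genes, 13156 of the LNCaP genes and 9886 of the CT1258 genes, and every member found passed it.

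PC-3 is a human line from a bone marrow metastasis, LNCaP a human line from a lymph node metastasis, and CT1258 a canine line from a prostate adenocarcinoma. RNA-seq was performed on cells given 15 µM PDA-66, an indolylmaleimide, for 12 h or 24 h, and on controls given 0.15% DMSO, the solvent, which the labels place at 24 h. Both exposure times were therefore compared with the same 24 h controls. Each of the 9 groups had 3 samples labelled as biological replicates, of which the PC-3 control group had 2 with counts, since the authors left out its replicate 1 as an outlier. Each line is a single established line, so that the replicates measure the spread between cultures and not between tumours.

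The chromosomal passenger complex consists of the kinase Aurora B (AURKB), the scaffold INCENP, survivin (BIRC5) and borealin (CDCA8). It corrects faulty attachments of kinetochores to microtubules in mitosis and moves to the central spindle in anaphase. There PRC1 bundles antiparallel microtubules, the centralspindlin subunit RACGAP1 recruits ECT2, the exchange factor that activates the GTPase RhoA, and the scaffold anillin (ANLN) and citron kinase (CIT) organise the contractile ring and the midbody. The transcripts of these genes are known to accumulate in G2 and mitosis. In bulk RNA, a larger share of cells in these phases and more RNA per cell cannot be told apart.

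In the human genome (GRCh37, as hg19) the members lie on 7 chromosomes. AURKB lies at chr17:8108051-8113918 on the minus strand, INCENP at chr11:61891470-61920641 on the plus strand, BIRC5 at chr17:76210267-76221717 on the plus strand and CDCA8 at chr1:38158153-38175391 on the plus strand. PRC1 lies at chr15:91509270-91538859 and RACGAP1 at chr12:50370706-50426919, both on the minus strand, and ECT2 at chr3:172468472-172539264 on the plus strand. ANLN lies at chr7:36429430-36493400 on the plus strand and CIT at chr12:120123596-120315124 on the minus strand. PRC1 shares 88.4% of its exon bases with an unnamed protein-coding gene of the same strand and 38.8% with the antisense gene PRC1-AS1. Since the counting rule for strand and for shared reads was not given in the sources used here, the counts of PRC1 could include reads of these genes.

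Many genes of G2 and mitosis carry a cell cycle homology region, with the letters TTTGAA or TTCGAA, and a CCAAT box upstream of their start, and these letters were looked up because the members changed together. RefSeq promoters (GRCh38.p14) were held for 7 of the 9 members, with no entry for BIRC5 and RACGAP1. Within the last 100 bases before the start, TTTGAA or TTCGAA stood on either strand in 4 of the 7, compared with 6.14% of 27305 genes, and CCAAT in 5 of the 7, compared with 21.6%. The windows of INCENP, CDCA8, PRC1 and ANLN, which held TTTGAA close to the start, are shown as the last 120 bases upstream, from 5′ to 3′ on the strand of the gene, with TTTGAA and CCAAT of either strand in capitals.
INCENP: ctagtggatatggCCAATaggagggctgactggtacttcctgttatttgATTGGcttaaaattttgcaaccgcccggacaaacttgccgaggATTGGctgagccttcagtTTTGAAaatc
CDCA8: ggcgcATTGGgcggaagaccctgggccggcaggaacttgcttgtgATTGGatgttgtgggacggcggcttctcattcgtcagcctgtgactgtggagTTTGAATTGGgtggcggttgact
PRC1: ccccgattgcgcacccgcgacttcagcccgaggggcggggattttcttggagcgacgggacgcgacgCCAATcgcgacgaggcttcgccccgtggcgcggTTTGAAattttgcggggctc
ANLN: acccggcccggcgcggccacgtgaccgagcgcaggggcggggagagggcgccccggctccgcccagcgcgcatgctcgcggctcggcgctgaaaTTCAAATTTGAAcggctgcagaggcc
These windows lie at chr11:62123891-62124010 (INCENP, plus strand), chr1:37692396-37692515 (CDCA8, plus strand), chr15:90994536-90994655 (PRC1, minus strand) and chr7:36389742-36389861 (ANLN, plus strand). Counted back from the start, TTTGAA began at -10 in INCENP, -23 in CDCA8 and -20 in both PRC1 and ANLN. In CDCA8 its last base overlapped a reverse CCAAT, and in ANLN a reverse copy stood directly before it. Both kinds of letters stood in the last 100 bases of INCENP, CDCA8 and PRC1, compared with 1.25% of all genes with a promoter. Over the whole 250 bases, TTTGAA or TTCGAA stood in 6 of the 7 members (17.2% of all genes) and CCAAT in 6 of the 7 (37%). These are matches of letters, and no binding was measured.

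Total counts per library were 14650839 to 18091755 for PC-3, 11923105 to 14741883 for LNCaP and 7203534 to 20976950 for CT1258, whose controls had 2.64 times the mean total of the treated samples. Common biological coefficients of variation were 0.0971, 0.24 and 0.1. In LNCaP, replicate 2 of the 12 h group stood apart, with a mean distance of 2.19 to the other libraries of its group, compared with 1.53 and 1.58 for those. No replicate pair agreed within sampling noise. In CT1258, only 1 of the 4 epithelial markers was listed by name, and this one, EPCAM, reached at most 0.262 CPM (counts scaled to the TMM-normalised library size). The 4 fibroblast markers listed in CT1258 summed to between 346 and 453 CPM and overlapped among its 3 groups. LUM made up most of this sum, with 262 to 429 CPM, followed by COL1A2 with 10.7 to 89.3 CPM. COL1A1 and COL3A1 reached at most 0.133 and 0.298 CPM there. In PC-3, the 5 fibroblast markers summed to 47.7 and 70.4 CPM in the controls and to at most 24.2 CPM in the treated libraries. Over the PC-3 libraries COL1A2 ranged from 3.86 to 54.9 CPM, COL1A1 from 6.01 to 9.36 CPM and COL3A1 from 0.651 to 6.17 CPM. The 4 epithelial markers summed to 517 and 576 CPM in PC-3 controls, to 331–455 CPM in its treated libraries and to 1334–2039 CPM in LNCaP. The 3 endothelial markers summed to 13–18.8 CPM in PC-3 controls and to at most 10.1 CPM in its treated libraries. In LNCaP they summed to 22.9–40.2 CPM in controls and to at most 14.6 CPM in treated libraries. A different single gene made up nearly all of each sum. In PC-3 it was PECAM1, with VWF and CDH5 at no more than 0.335 and 0.244 CPM. In LNCaP it was VWF, with PECAM1 and CDH5 at no more than 0.0772 and 0.0823 CPM. The 2 endothelial markers listed in CT1258 summed to between 4.8 and 8.79 CPM. Leukocyte markers stayed at or below 1.9 CPM in every library. The part of these differences in the results on the members was not tested.

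In the control cells, levels were compared between genes per length, as CPM per kilobase of the GENCODE canonical transcript. BIRC5 stood highest in PC-3, with 80 ± 12.6 (SD, n = 2), followed by ECT2 with 41.6 ± 6.76 and RACGAP1 with 39.3 ± 5.86, which overlapped each other. PRC1 (29.9 ± 2.59) and ANLN (28 ± 0.49) came next and also overlapped, as did ANLN with AURKB (22.3 ± 8.16) and AURKB with CDCA8 (18.8 ± 4.32). INCENP (11.1 ± 2.24) and CIT (8.83 ± 1.06) were lowest and overlapped. In LNCaP controls BIRC5 was again highest, with 30.6 ± 18.4 (SD, n = 3), and CIT lowest, with 3.41. After 12 h of PDA-66 in PC-3, ANLN reached 81.2 ± 0.784 and stood second to BIRC5 with 115 ± 2.15.

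The human lines were compared under DMSO in 1 fit over both tables, with 1 estimate of spread per gene shared by both lines. All 9 members had a higher fitted level in PC-3 than in LNCaP, which turned for INCENP without PC-3 DMSO replicate 2 (-0.06) or LNCaP DMSO replicate 3 (-0.05) and for CDCA8 without replicate 3 of either DMSO group (-0.14 and -0.17). Of these, 2 passed an adjusted p of 0.001 in edgeR's quasi-likelihood test, RACGAP1 with a log2 difference of 0.97 (SE 0.208, adjusted p = 0.000666) and CIT with 1.40 (SE 0.224, adjusted p = 3.76e-05), compared with 21.7% of the 15018 genes tested that were higher in PC-3 by this rule. At an adjusted p of 0.05, BIRC5, PRC1, ECT2 and ANLN also passed, which made 6 of 9, compared with 32.6% of all genes. Calls at 0.05 were lost without PC-3 DMSO replicate 3 for BIRC5 (adjusted p = 0.058), ECT2 (0.131) and ANLN (0.114), and without LNCaP DMSO replicate 3 for ECT2 (0.0761) and ANLN (0.151). ANLN was also lost without PC-3 DMSO replicate 2 (0.131) or LNCaP DMSO replicate 2 (0.0835), and without most of the single treated libraries, with an adjusted p of up to 0.0558. The count at 0.001 was unstable and reached 5 members without LNCaP PDA-66 12 h replicate 2. The share of all genes called in that fit is not given here, so that the 5 shows only how unstable the number was.

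**Figure D1:**
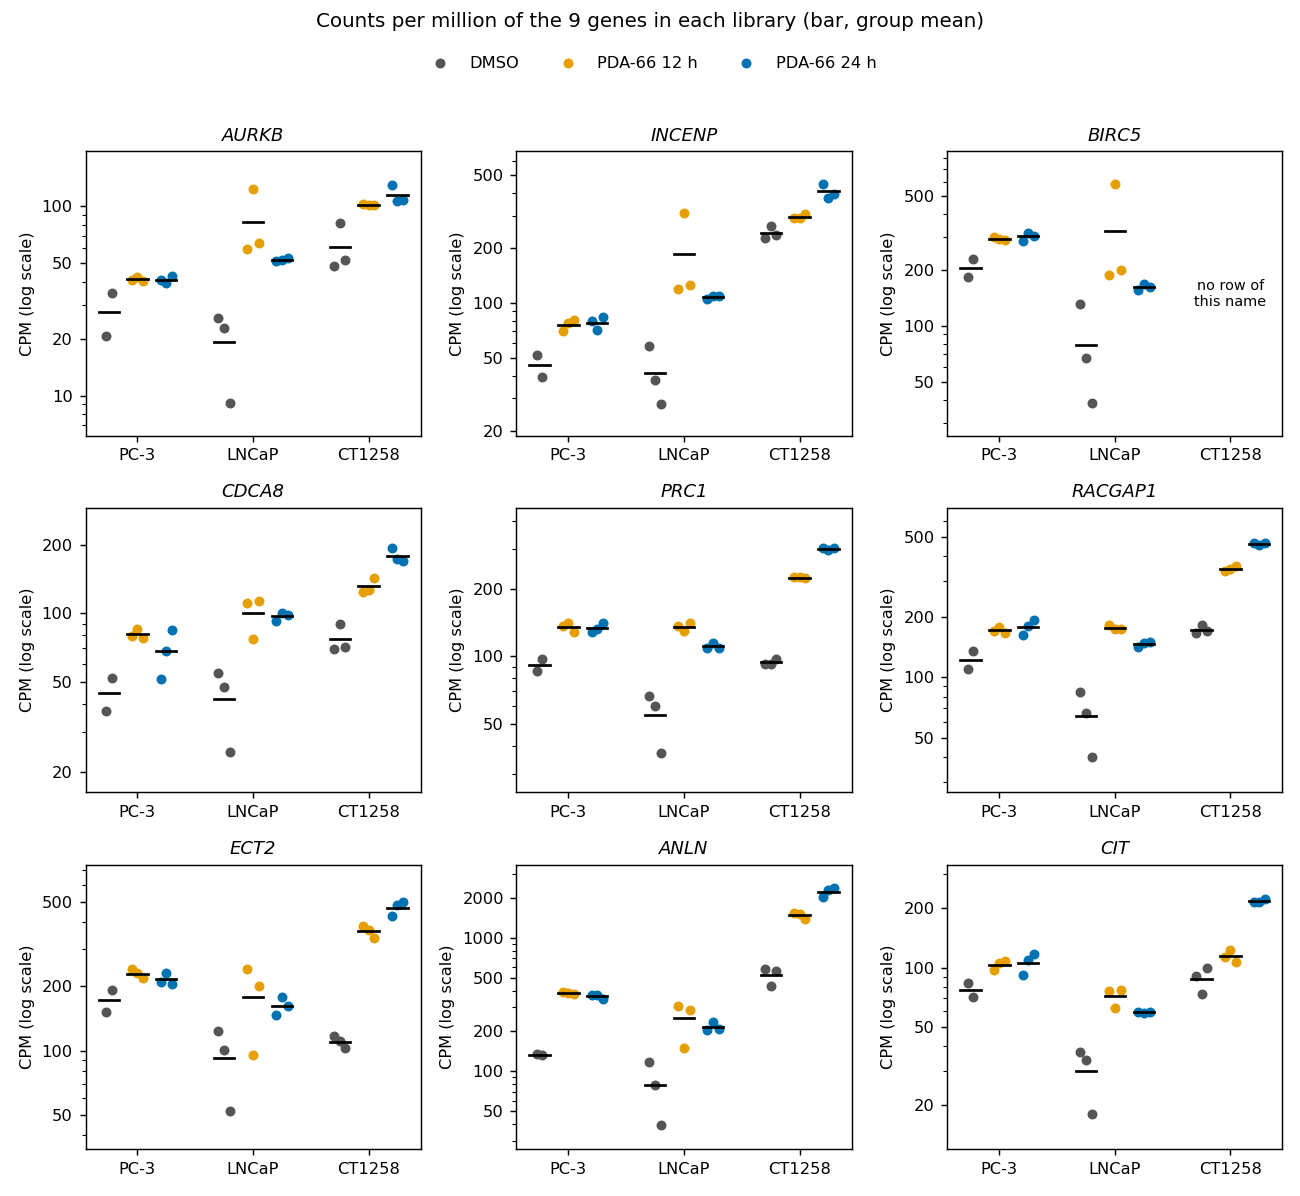
Level of each member in every library, in CPM on a log scale, for the DMSO (grey), PDA-66 12 h (orange) and PDA-66 24 h (blue) groups of the 3 cell lines; bars are group means. Treated libraries lay above the controls in nearly every panel, CT1258 levels were higher at 24 h than at 12 h, and 1 LNCaP library at 12 h stood apart from its group for AURKB, INCENP, BIRC5, ECT2 and ANLN.

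With PDA-66, the fitted log2 fold change of every member was above 0 in all 3 cell lines at both times. PC-3 cells had a median over the members of 0.55 at 12 h and 0.56 at 24 h, LNCaP cells of 1.47 and 1.20, and CT1258 cells of 0.89 and 1.36, while the median over all genes tested lay between -0.01 and 0.03. All 961 fitted values of the members against DMSO under the other settings tried were also above 0. These are refits of the same libraries and not independent of each other. The comparisons of 12 h and 24 h within a line share their control libraries, and each is therefore given by its own values.

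In PC-3 at 12 h, 3 of the 9 members, INCENP, PRC1 and ANLN, were significantly higher at an adjusted p of 0.001 (edgeR's quasi-likelihood test), compared with 13% of the 13777 genes tested that were higher by this rule. At 24 h these 3 and BIRC5 passed, 4 of 9 compared with 8.88%. At an adjusted p of 0.05 all 9 passed at both times, compared with 28.3% and 24.3% of all genes. No member was lower. Without control replicate 2, AURKB lost its call at 0.05 at 12 h (adjusted p = 0.0661), and AURKB (0.0802), CDCA8 (0.0999) and ECT2 (0.142) lost theirs at 24 h. CIT at 12 h was lost without control replicate 3 (0.0508), CDCA8 at 24 h without treated replicate 3 (0.0555), and ECT2 at 24 h without treated replicate 2 (0.108) or with only the 2 groups compared (0.0651). With only 2 control libraries, the count at 0.001 was unstable when single libraries were left out, and a fit without 1 control rests on 1 control library. At 12 h the count was 1 without replicate 3 or 1 other of the treated libraries. These fits called 2481 and 2574 of all genes in either direction, compared with 3797. At 24 h the count was 1 without treated replicate 1 or 3, and 2 without any 12 h library or treated replicate 2. Over all genes 1746 were called without treated replicate 1, 2010 to 2174 without a 12 h library and 1551 without treated replicate 2, compared with 2665.

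LNCaP gave 0 of 9 members at an adjusted p of 0.001 at either time in edgeR's quasi-likelihood test, where 0% of the 13156 genes tested were called higher. All 9 had an unadjusted p under 0.05 at 12 h, as did 30% of all genes, and 7 had one at 24 h (19.8%). At an adjusted p of 0.05, 8 members passed at 12 h, all but ECT2, compared with 4.52% of all genes, and PRC1 and RACGAP1 passed at 24 h, compared with 1.35%. These counts moved with the libraries and the fit. Without the 12 h library that stood apart, all 9 passed 0.05 at 12 h (14.1% of all genes higher) and at 24 h (13.5%), and in a fit of only the groups compared 0 passed at 12 h (0.00768%) and 8 at 24 h (11.2%). Leaving out any 1 of the 24 h libraries gave 5 at 12 h (2.05% to 2.25%) and 0 at 24 h (0.00747% or 0.00748%), and leaving out 12 h replicate 3 gave 6 (2.67%) and 0 (0.501%). At 0.001, edgeR's likelihood ratio test gave 7 and 2 members, DESeq2 8 and 2, and limma voom with a weight per library, which weighs down libraries that vary more, 9 and 9. Over all 13156 genes these tools called, in either direction, 571 and 258, 620 and 286, and 1831 and 1473.

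In CT1258 at 12 h, 6 of the 8 members were significantly higher at an adjusted p of 0.001, all but INCENP and CIT, compared with 22.2% of the 9886 genes tested. At 24 h all 8 passed, compared with 16.6%. All 8 passed an adjusted p of 0.05 at both times, compared with 34.7% and 30.6%. Thinning the counts to the lowest total left 5 and 8 members, and AURKB was the member lost at 12 h (adjusted p = 0.00176). The shares of all genes given above are those before thinning. AURKB passed 0.001 at 12 h in only 9 of the 19 other settings, with an adjusted p of up to 0.00404. At 12 h it was lost without any 1 library other than control replicate 2. At 24 h AURKB passed 0.001 in 17 of the 19 other settings, with an adjusted p of up to 0.00222. The count at 24 h was 7 without 24 h replicate 1.

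**Figure D2:**
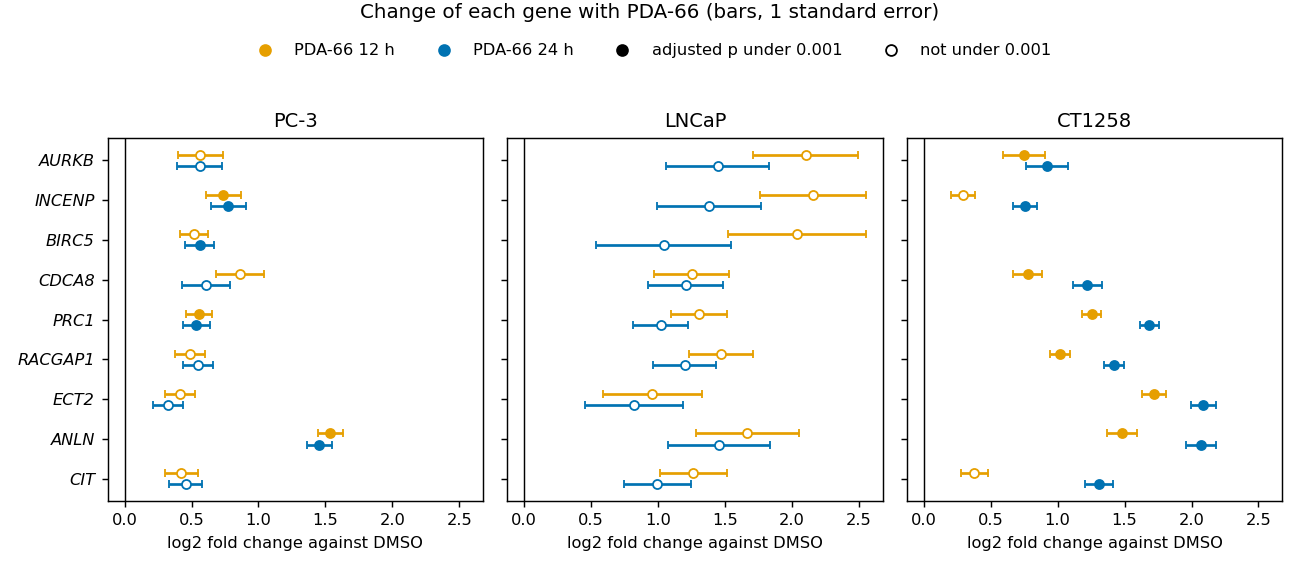
Log2 fold change of each member against DMSO at 12 h (orange) and 24 h (blue), with bars of 1 standard error, in the 3 cell lines; filled points had an adjusted p under 0.001 in edgeR's quasi-likelihood test. All points lay to the right of 0; standard errors were widest in LNCaP, where no point is filled.

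Of the passenger complex, Aurora B is the catalytic subunit. In PC-3, AURKB was at 20.6 and 34.9 CPM in the controls, at 40.7, 42.4 and 40.4 CPM at 12 h and at 41, 39.2 and 42.7 CPM at 24 h. The treated libraries differed little among themselves and lay above both controls, which differed the most. The log2 fold change was 0.57 (SE 0.166, adjusted p = 0.0103) at 12 h and 0.56 (adjusted p = 0.0135) at 24 h. At 12 h it was 0.24 (adjusted p = 0.0661) without control replicate 2 and 1.01 (adjusted p = 1.36e-05) without control replicate 3. In LNCaP, AURKB was at 25.8, 22.7 and 9.2 CPM in the controls, at 59.6, 124 and 64.4 CPM at 12 h and at 51.3, 52.2 and 53.4 CPM at 24 h. The groups did not overlap, but 1 control lay far below and 1 library at 12 h far above the others. The log2 fold changes of 2.10 (SE 0.393, adjusted p = 0.0149) and 1.44 (SE 0.387, adjusted p = 0.0777) had wide errors. In CT1258, AURKB rose from 48.7, 82.1 and 52.2 CPM to 103, 102 and 102 CPM at 12 h and to 130, 107 and 109 CPM at 24 h. Control replicate 2 was the highest control and still lay below all treated libraries. The log2 fold changes were 0.75 (SE 0.158, adjusted p = 0.000795) and 0.92 (SE 0.158, adjusted p = 0.000194), and 1.01 and 1.19 without that control.

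INCENP, the scaffold that binds and activates Aurora B, was at 52.1 and 39.1 CPM in PC-3 controls, at 70, 77.9 and 80.2 CPM at 12 h and at 79.4, 70.7 and 84.1 CPM at 24 h. All treated libraries exceeded both controls, and the log2 fold changes were 0.74 (SE 0.131, adjusted p = 0.000362) and 0.78 (SE 0.131, adjusted p = 0.000348). Without control replicate 3 they no longer passed 0.001, with values of 0.55 (adjusted p = 0.00212) and 0.60 (adjusted p = 0.00167). In LNCaP, INCENP was at 58.1, 37.9 and 28.1 CPM in the controls, at 119, 310 and 125 CPM at 12 h and at 105, 109 and 109 CPM at 24 h. One library again lay far above its group at 12 h, and no treated library reached down to the controls. The log2 fold change at 12 h was 2.15 (SE 0.395, adjusted p = 0.0141), and 1.56 (adjusted p = 0.00113) without that library. In CT1258, INCENP went from 226, 264 and 236 CPM to 291, 291 and 308 CPM at 12 h and to 450, 378 and 397 CPM at 24 h. Its change at 12 h, 0.29 (SE 0.0894, adjusted p = 0.00952), passed 0.001 without control replicate 2 (0.36, adjusted p = 0.000175) and in limma voom (0.34, adjusted p = 6.44e-06), and was followed by 0.75 (SE 0.0895, adjusted p = 8.92e-06) at 24 h.

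BIRC5 encodes survivin, which places the complex at the centromere. In PC-3 it was at 183 and 229 CPM in the controls, at 301, 295 and 290 CPM at 12 h and at 288, 316 and 307 CPM at 24 h. The treated libraries lay above both controls, and the 12 h and 24 h libraries overlapped. The log2 fold changes were 0.52 (SE 0.107, adjusted p = 0.00108) and 0.56 (SE 0.107, adjusted p = 0.000833), just above and just below the threshold. At 24 h the call was kept in 8 of the 18 other settings, with an adjusted p of up to 0.0139. Without control replicate 2 the log2 fold change at 24 h was 0.42. In LNCaP the controls were at 131, 66.9 and 38.2 CPM, the 12 h libraries at 188, 582 and 200 CPM and the 24 h libraries at 155, 167 and 163 CPM. The controls spread over a wide range, and the library at 582 CPM was far above all others. The log2 fold changes were 2.04 (SE 0.515, adjusted p = 0.0398) and 1.04 (SE 0.502, adjusted p = 0.289), and that at 12 h was 1.30 (adjusted p = 0.0195) without this library and 2.62 (adjusted p = 0.0214) without control replicate 1. The CT1258 row BIRC5_CANFA, looked up after the values were seen, was at 245, 334 and 240 CPM in the controls, at 371, 363 and 388 CPM at 12 h and at 489, 486 and 489 CPM at 24 h. Its log2 fold changes were 0.45 (SE 0.111, adjusted p = 0.00228) and 0.84 (SE 0.111, adjusted p = 2.23e-05).

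CDCA8 encodes borealin, which links survivin and INCENP. It was at 37.3 and 51.8 CPM in PC-3 controls, at 79.6, 85.5 and 77.8 CPM at 12 h and at 51.3, 68.5 and 84.1 CPM at 24 h. The 24 h libraries spread widely and the lowest fell below 1 control, the only overlap of a treated with a control group among the members in PC-3. The log2 fold changes were 0.86 (SE 0.181, adjusted p = 0.00124) and 0.61 (SE 0.181, adjusted p = 0.0134), the latter 0.40 (adjusted p = 0.0999) without control replicate 2. In LNCaP, CDCA8 was at 54.6, 47.2 and 24.4 CPM in the controls, at 111, 76.9 and 113 CPM at 12 h and at 92.5, 100 and 98.2 CPM at 24 h. Here the 12 h library that was highest for AURKB, INCENP and BIRC5 was the lowest of its group. The log2 fold changes were 1.25 (SE 0.280, adjusted p = 0.0266) and 1.21 (SE 0.280, adjusted p = 0.0535). In CT1258, CDCA8 rose from 69.4, 89.8 and 71 CPM to 124, 127 and 143 CPM and then to 194, 173 and 170 CPM. No groups overlapped, with log2 fold changes of 0.77 (SE 0.107, adjusted p = 2.06e-05) and 1.22 (SE 0.107, adjusted p = 6.15e-07).

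Among the genes of the central spindle, PRC1, the microtubule bundler, had small errors in each line. PRC1 was at 86.4 and 97.6 CPM in PC-3 controls, at 136, 141 and 129 CPM at 12 h and at 128, 132 and 140 CPM at 24 h. All treated libraries lay above the controls and the 2 times overlapped, with log2 fold changes of 0.55 (SE 0.098, adjusted p = 0.000346) and 0.54 (SE 0.0981, adjusted p = 0.000604). Of the other settings, 11 of 17 at 12 h and 8 of 18 at 24 h kept the call of PRC1 at 0.001, with adjusted p-values of up to 0.0024 and 0.0227. In LNCaP it was at 67, 60.2 and 37.2 CPM in the controls, at 136, 129 and 141 CPM at 12 h and at 109, 115 and 109 CPM at 24 h. The 12 h libraries lay close together, and the log2 fold changes of 1.31 (SE 0.208, adjusted p = 0.00888) and 1.02 (SE 0.207, adjusted p = 0.0374) passed an adjusted p of 0.05. In CT1258, PRC1 rose from 92.3, 92.2 and 97.4 CPM to 225, 225 and 222 CPM at 12 h and to 305, 297 and 304 CPM at 24 h. The 3 groups were well separated, with log2 fold changes of 1.26 (SE 0.0721, adjusted p = 9.15e-09) and 1.68 (SE 0.0725, adjusted p = 1.17e-09).

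RACGAP1, the centralspindlin subunit with a GTPase-activating domain, was at 109 and 135 CPM in PC-3 controls, at 170, 178 and 166 CPM at 12 h and at 163, 181 and 192 CPM at 24 h. The treated libraries lay above the controls, with log2 fold changes of 0.49 (SE 0.112, adjusted p = 0.0023) and 0.55 (SE 0.112, adjusted p = 0.00135). In LNCaP, RACGAP1 was at 84.5, 66.7 and 40.1 CPM in the controls, at 183, 173 and 173 CPM at 12 h and at 141, 148 and 150 CPM at 24 h. The groups did not overlap, and RACGAP1 was 1 of the 2 members past an adjusted p of 0.05 at both times in this line, with 1.47 (SE 0.238, adjusted p = 0.00945) and 1.20 (SE 0.237, adjusted p = 0.0351). In CT1258 it rose from 166, 181 and 169 CPM to 339, 347 and 357 CPM and to 463, 456 and 464 CPM, or by 1.01 (SE 0.0742, adjusted p = 7.05e-08) and 1.42 (SE 0.0747, adjusted p = 5.71e-09) on the log2 scale.

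ECT2, the exchange factor for RhoA, had low log2 fold changes in both human lines and high ones in CT1258. It was at 152 and 192 CPM in PC-3 controls, at 241, 230 and 218 CPM at 12 h and at 210, 230 and 206 CPM at 24 h, with log2 fold changes of 0.42 (SE 0.112, adjusted p = 0.00621) and 0.33 (SE 0.112, adjusted p = 0.0273). The treated libraries lay above both controls, and the change at 24 h was 0.18 without control replicate 2. At 12 h the change ranged from 0.27 to 0.60 over the other settings. In LNCaP the controls were at 124, 100 and 51.9 CPM, the 12 h libraries at 240, 94.8 and 201 CPM and the 24 h libraries at 148, 178 and 162 CPM. The lowest library at 12 h lay below 2 controls, and the log2 fold changes were 0.96 (SE 0.369, adjusted p = 0.126) and 0.82 (SE 0.369, adjusted p = 0.255). In CT1258, ECT2 rose from 117, 110 and 103 CPM to 383, 369 and 336 CPM at 12 h and to 428, 480 and 497 CPM at 24 h. This was a 3.30-fold and a 4.25-fold higher level, with log2 fold changes of 1.72 (SE 0.0902, adjusted p = 4.41e-09) and 2.09 (SE 0.0911, adjusted p = 1.17e-09).

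ANLN encodes anillin, which ties RhoA to actin, myosin and septins at the contractile ring, and it had the largest log2 fold change of the set in PC-3 at both times. In PC-3 it was at 134 and 131 CPM in the controls, at 388, 383 and 381 CPM at 12 h and at 370, 375 and 345 CPM at 24 h. Replicates lay close together, far from the controls, which gave a 2.90-fold and a 2.74-fold higher level with log2 fold changes of 1.54 (SE 0.0935, adjusted p = 3.57e-08) and 1.46 (SE 0.0932, adjusted p = 1.47e-07). In LNCaP, ANLN was at 117, 78.9 and 39.1 CPM in the controls, at 309, 149 and 289 CPM at 12 h and at 204, 234 and 208 CPM at 24 h. All treated libraries exceeded the controls, although 1 library at 12 h lay far below its group, and the log2 fold changes were 1.67 (SE 0.384, adjusted p = 0.0289) and 1.46 (SE 0.382, adjusted p = 0.0737). In CT1258 it rose from 582, 434 and 566 CPM to 1523, 1510 and 1379 CPM and to 2036, 2259 and 2355 CPM, the highest CPM of the set. The log2 fold changes were 1.48 (SE 0.113, adjusted p = 1.01e-07) and 2.07 (SE 0.115, adjusted p = 9.08e-09).

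CIT, the kinase of the midbody, was at 83.7 and 70.6 CPM in PC-3 controls, at 96.9, 105 and 108 CPM at 12 h and at 91.4, 109 and 118 CPM at 24 h. The gap to the controls was narrow, with log2 fold changes of 0.42 (SE 0.122, adjusted p = 0.00918) and 0.46 (SE 0.122, adjusted p = 0.00746). In LNCaP, CIT was at 37.3, 34.1 and 18 CPM in the controls, at 75.6, 62.2 and 76.9 CPM at 12 h and at 59.3, 58.9 and 59.8 CPM at 24 h. The groups did not overlap, and the log2 fold changes were 1.26 (SE 0.251, adjusted p = 0.0181) and 0.99 (SE 0.250, adjusted p = 0.0654). In CT1258, CIT was at 90.6, 73.6 and 99.5 CPM in the controls, at 113, 123 and 107 CPM at 12 h and at 214, 215 and 222 CPM at 24 h. The 12 h libraries lay just above the controls and the 24 h libraries far above both, with log2 fold changes of 0.38 (SE 0.104, adjusted p = 0.00496) and 1.31 (SE 0.104, adjusted p = 2.36e-07).

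Over the set, no treated library reached down to the controls for 9 of 9 members in PC-3 at 12 h (35.5% of all genes tested) and 8 of 9 at 24 h (30.6%). In LNCaP this held for 8 of 9 at 12 h (13.5%), all but ECT2, and for 9 of 9 at 24 h (23.1%). In CT1258 it held for 8 of 8 at 12 h (36.1%) and for 8 of 8 at 24 h (33.1%).

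The 2 exposure times were then compared with each other. In CT1258 all 8 members were higher at 24 h than at 12 h with no overlap between the groups, compared with 23.3% of all genes tested. CIT alone passed an adjusted p of 0.001, 1 of 8 compared with 0.85% of all genes that were higher, with a log2 difference of 0.93 (SE 0.104, adjusted p = 0.000104). At an adjusted p of 0.05, 7 of 8 passed (9.08% of all genes), all but AURKB, whose difference was 0.17 (SE 0.159, adjusted p = 0.484). ANLN was higher by 0.59 (SE 0.111, adjusted p = 0.00259), INCENP by 0.46 (SE 0.0898, adjusted p = 0.00336), CDCA8 by 0.45, PRC1 by 0.43, RACGAP1 by 0.41 and ECT2 by 0.37. Calls at 0.05 were lost for CDCA8 without 12 h replicate 1 (adjusted p = 0.0609) or 2 (0.0549) or 24 h replicate 1 (0.0579), and for ECT2 without 24 h replicate 3 (0.0584). The share of 0.85% refers to the fit with all libraries, in which the count at 0.001 was 1. This count was 0 without 12 h replicate 1 or 3 or 24 h replicate 2 or 3, and 7 without control replicate 2. The shares of all genes called in these fits are not given here, so that the counts show only how unstable the number was. CIT kept a difference of at least 0.88 in all of these fits, with adjusted p-values of up to 0.00154.

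No member differed between 24 h and 12 h in the human lines at an adjusted p of 0.001 (1.41% of all genes in PC-3 and 0% in LNCaP) or 0.05 (10.1% and 0%) in edgeR's quasi-likelihood test, none had an unadjusted p under 0.05 (24.5% and 6.36%), and edgeR's likelihood ratio test, DESeq2 and limma voom also gave 0 at 0.001. At 0.05, limma voom called PRC1 (adjusted p = 0.0113), CIT (0.0145), ANLN (0.0156) and ECT2 (0.048) lower at 24 h in LNCaP, and CDCA8 (0.00415) lower at 24 h in PC-3. In PC-3 the differences ranged from -0.25 (CDCA8, SE 0.156) to 0.06 (RACGAP1, SE 0.0985), and 1 member, ANLN, was lower at 24 h with no overlap (18.7% of all genes). In LNCaP all 9 differences were below 0, from -0.996 (BIRC5, SE 0.4996) to -0.05 (CDCA8, SE 0.275), and 6 of the 9 were lower at 24 h with no overlap (8.7% of all genes). Without the 12 h library that stood apart, the differences in LNCaP lay between -0.48 (ANLN) and -0.17 (INCENP). Without 12 h replicate 1, ECT2 (0.13) and CDCA8 (0.03) turned to above 0, as did CDCA8 (0.05) without 12 h replicate 3. Whether the time course itself differed between cell lines was not tested.

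**Figure D3:**
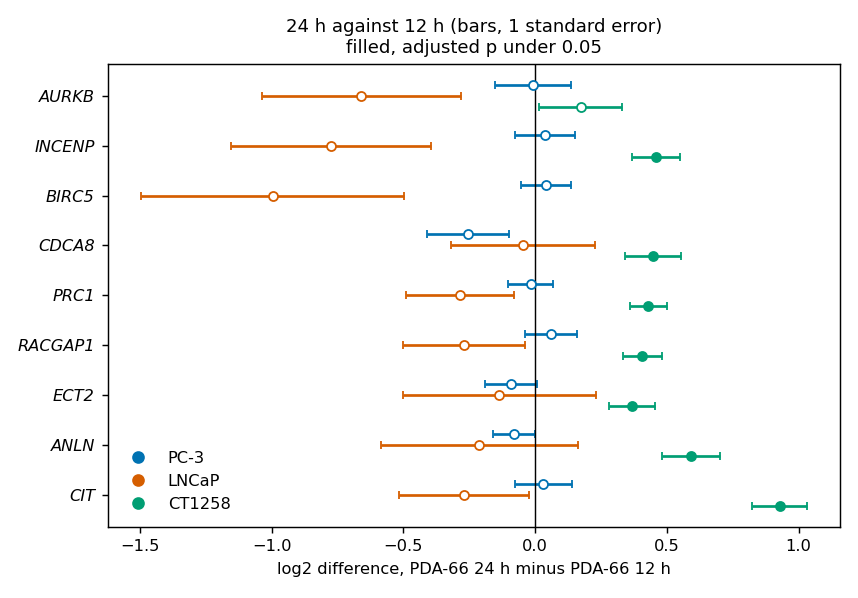
Log2 difference of each member between PDA-66 at 24 h and at 12 h, with bars of 1 standard error, in PC-3 (blue), LNCaP (orange) and CT1258 (green); filled points had an adjusted p under 0.05 in edgeR's quasi-likelihood test. CT1258 points lay to the right of 0, PC-3 points near 0, and LNCaP points to the left of 0 with wide errors.

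The LNCaP controls spread widely. The members summed to 699 CPM in control replicate 1, the highest for all 9, to 515 CPM in replicate 2 and to 286 CPM in replicate 3, the lowest for all 9. Without control replicate 1, 2 or 3, an adjusted p of 0.05 was passed by 8, 2 and 4 members at 12 h (5.57%, 1.12% and 0.933% of all genes higher) and by 5, 0 and 0 at 24 h (2.98%, 0.0376% and 0.0602%). Without replicate 1 the log2 fold changes at 12 h lay between 1.24 (ECT2) and 2.62 (BIRC5), and BIRC5 at 24 h was 1.63 (adjusted p = 0.101). Without replicate 3, the fitted log2 fold changes at 12 h lay between 0.67 (ECT2) and 1.94 (INCENP), and AURKB, PRC1, RACGAP1 and CIT passed an adjusted p of 0.05. At 24 h they lay between 0.54 and 1.17, with adjusted p-values from 0.0751 to 0.666. Replicate 2 at 12 h, compared with the mean of the other 2 libraries of its group, was higher by 1.59 for BIRC5, 1.35 for INCENP and 1.00 for AURKB on the log2 scale, and was lower by values of -1.21 for ECT2, -1.004 for ANLN, -0.54 for CDCA8 and -0.29 for CIT. PRC1 (-0.10) and RACGAP1 (-0.04) differed little. These deviations moved with the GC content of the transcripts, which was 36.3% for ECT2, 39.8% for ANLN, 44.8% for RACGAP1, 46.8% for PRC1, 51.2% for both CDCA8 and BIRC5, 51.6% for CIT, 55.7% for AURKB and 58.8% for INCENP. Over the genes tested with a known GC content, split into 5 groups of 2340 by GC content, the median deviation of this library went from -0.85 in the lowest group to 1.07 in the highest. CDCA8 and BIRC5 have the same GC content and deviated in opposite directions. The summed fibroblast markers of LNCaP, of which COL1A1 made up nearly all, ranged up to 127 CPM in the 12 h group and up to 28.4 CPM in the others.

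Without replicate 2 at 12 h, the log2 fold changes in LNCaP at 12 h were 1.69 for AURKB, 1.56 for INCENP, 1.30 for BIRC5, 1.41 for CDCA8, 1.34 for PRC1, 1.49 for RACGAP1, 1.26 for ECT2, 1.93 for ANLN and 1.36 for CIT. All 9 then had an adjusted p between 0.00111 and 0.0195, so that none passed 0.001, where 261 of all genes did, and all passed 0.05, as they did at 24 h with adjusted p-values between 0.00182 and 0.0352. An edgeR fit with each library corrected for GC content, chosen after the data were seen, gave values between 1.01 (ECT2, adjusted p = 0.0132) and 1.96 (BIRC5, adjusted p = 0.0129) at 12 h and a common coefficient of variation of 0.163. It also called 0 members at 0.001 at either time, and 61 and 8 of the 11700 genes with a known GC content. At 0.05 it called all 9 at 12 h (15.5% of these genes higher) and 8 at 24 h (9.12%), all but BIRC5 (adjusted p = 0.135).

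**Figure D4:**
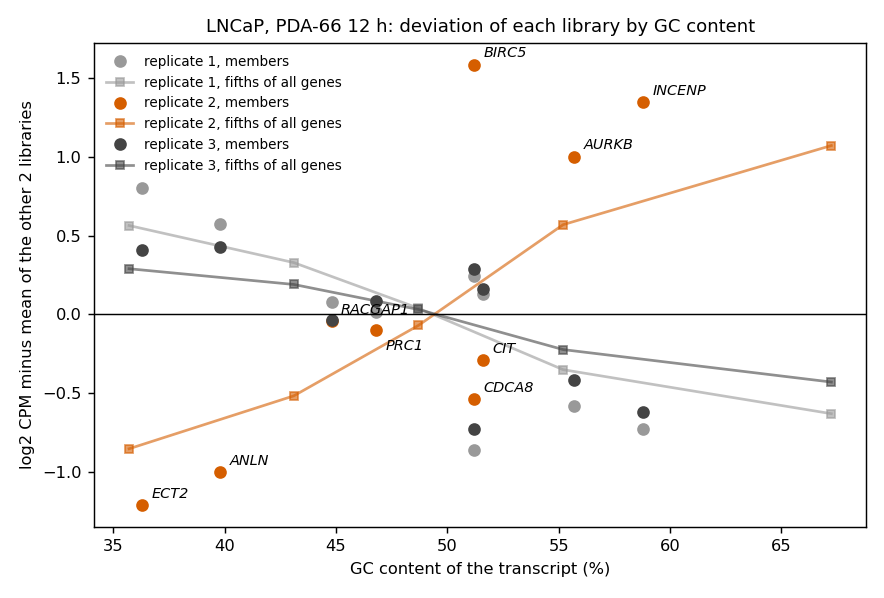
Deviation of each LNCaP library at 12 h from the mean of the other 2 libraries of its group, in log2 CPM, against the GC content of the transcript in percent; points are the 9 members, and lines join the medians of 5 equal groups of genes by GC content, drawn at the middle of their GC range. Replicate 2 (orange) ran from -0.85 to 1.07 over these groups, and BIRC5 lay above and CDCA8 below this line at the same GC content.

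Responses were compared between the cell lines by an interaction test over the 11736 genes tested that the 3 tables share by name, in which BIRC5 had no CT1258 row and did not enter. At an adjusted p of 0.001, 2 differences passed over 6 comparisons of 8 members each. PRC1 responded less in PC-3 than in CT1258 at 24 h, with a difference of -1.16 (SE 0.200, adjusted p = 0.000243), 1 of 8 members compared with 2.54% of all genes that were lower. INCENP responded more in LNCaP than in CT1258 at 12 h, with a difference of 1.80 (SE 0.349, adjusted p = 0.00035), 1 of 8 compared with 6.78% that were higher. This SE, from the shared spread, was smaller than that of the LNCaP change alone. The latter was 2.15 (SE 0.395, adjusted p = 0.0141) in edgeR's quasi-likelihood test within LNCaP and did not pass 0.001. The PRC1 difference passed only as long as PC-3 control replicate 3 (-0.999, adjusted p = 0.00493 without it), 24 h replicate 1 (-1.08, 0.00127) and 24 h replicate 2 (-1.10, 0.00122) were kept. The INCENP difference was 1.22 (adjusted p = 7.2e-05) without the LNCaP library that stood apart, and lost its call without LNCaP control replicate 2 (1.73, adjusted p = 0.00173) or 3 (1.58, 0.00154), CT1258 control replicate 2 (1.73, 0.00142) or CT1258 12 h replicate 1 (1.92, 0.00101).

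Between PC-3 and LNCaP, 0 of 8 members differed at an adjusted p of 0.001 at 12 h, where 3.57% of all genes did, and 5 had an unadjusted p under 0.05 (33.7%). DESeq2 gave 1 member, and edgeR's likelihood ratio test and limma voom 0. Over all genes DESeq2 called 921 and the likelihood ratio test 875, compared with 419 in the quasi-likelihood test. Without LNCaP control replicate 1 the quasi-likelihood test gave 2 members. At an adjusted p of 0.05, 5 members, AURKB (-1.50), INCENP (-1.37), RACGAP1 (-0.95), CIT (-0.81) and PRC1 (-0.72), responded less in PC-3, compared with 9.76% of all genes. Without LNCaP PDA-66 12 h replicate 2 the differences were -1.12 for AURKB and -0.81 for INCENP. Calls were lost for AURKB (adjusted p = 0.123) and PRC1 (0.0518) without PC-3 control replicate 3, for INCENP (0.0603) and CIT (0.11) without PC-3 control replicate 2, and for CIT (0.0585) without LNCaP control replicate 3. ANLN, with a difference of -0.11 (SE 0.375), did not pass. At 24 h 0 members passed either threshold (1.23% of all genes at 0.001 and 9.7% at 0.05), 3 had an unadjusted p under 0.05 (23.5%), and the other tools gave 0 at 0.001.

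Between PC-3 and CT1258 at 12 h, 0 members passed 0.001 (9.33% of all genes) and 3 had an unadjusted p under 0.05 (40.1%). DESeq2 gave 1, where it called 1828 of all genes, and limma voom with 1 weight per cell line, chosen after the data were seen, gave 2. PRC1 (-0.72, adjusted p = 0.00849) and ECT2 (-1.32, adjusted p = 0.00824) passed 0.05 and responded less in PC-3, 2 of 8 compared with 15.1%, and both calls were lost without PC-3 control replicate 3 (adjusted p = 0.0803 and 0.0666). At 24 h, PRC1, ECT2 (-1.78, adjusted p = 0.00125), RACGAP1 (-0.88, adjusted p = 0.00867) and CIT (-0.86, adjusted p = 0.0196) passed 0.05, 4 of 8 compared with 10.5%. RACGAP1 lost its call without PC-3 control replicate 3 (adjusted p = 0.101), and CIT without PC-3 control replicate 2 (0.0836), PC-3 24 h replicate 1 (0.0715) or CT1258 control replicate 2 (0.0514). ECT2 was 1.25-fold higher in treated PC-3 and 4.25-fold higher in treated CT1258 cells at this time.

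Between LNCaP and CT1258 at 12 h, AURKB (1.30, adjusted p = 0.00989), INCENP and CIT (0.84, adjusted p = 0.00917) passed 0.05 and responded more in LNCaP, 3 of 8 compared with 20.6%. At 24 h 0 members passed 0.001 (3.44% of all genes), 2 had an unadjusted p under 0.05 (33.1%) and DESeq2 gave 1, where it called 1037 of all genes. PRC1 (-0.69, adjusted p = 0.0116) and ECT2 (-1.30, adjusted p = 0.0105) passed 0.05 and responded less in LNCaP, 2 of 8 compared with 11.1%. PRC1 lost its call without LNCaP control replicate 1 (-0.44, adjusted p = 0.0749) or LNCaP 24 h replicate 1 (adjusted p = 0.053) or 3 (0.0504). Species, gene annotation and counting tool differ with the line here and cannot be told apart.

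Other genes that act with the members were counted from 4 lists. Of 8 genes that recruit or regulate the passenger complex, PC-3 had 2 higher and 0 lower at an adjusted p of 0.001 at both times, where 13% and 8.88% of all genes were higher and 14.6% and 10.5% lower at 12 h and 24 h. These were BUB1 and GSG2, the kinases whose histone marks place the complex at centromeres, with log2 fold changes of 1.06 and 0.70 at 24 h. In CT1258, 7 were tested, of which 5 were higher and 1 lower at 12 h and 6 higher and 1 lower at 24 h, compared with 22.2% and 16.6% of all genes that were higher and 22.1% and 17.2% that were lower. The largest rise was that of SGOL1, a protector of centromeric cohesion, with 2.03 (SE 0.133, adjusted p = 4.38e-08) at 24 h, and the one that fell was RCC2 with -0.92 (SE 0.0888, adjusted p = 1.56e-06). The median over the list was 0.54 in PC-3 and 1.76 in CT1258 at 24 h.

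Of the motors and bundlers of the central spindle, PC-3 had 2 of 7 higher at both times (13% and 8.88% of all genes), which at 24 h were KIF23, the motor partner of RACGAP1, with 0.95 and KIF4A, a partner of PRC1, with 0.79. All 5 tested in CT1258 were higher at both times (22.2% and 16.6% of all genes), from KIF20A with 0.42 (SE 0.0768, adjusted p = 0.000226) at 12 h to KIF14, which binds PRC1 and citron kinase, with 2.31 (SE 0.129, adjusted p = 9.47e-09) at 24 h. The medians at 24 h were 0.33 and 1.98.

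Of the genes of RhoA, myosin II, formins and septins, PC-3 had 5 of 15 higher at 12 h (13% of all genes) and 4 at 24 h (8.88%), with MYL9, a regulatory light chain of myosin, at 2.54 (SE 0.292, adjusted p = 9.67e-06) at 12 h. Of the 10 tested in CT1258, 4 were higher and 0 lower at 12 h (22.2% and 22.1% of all genes) and 4 higher and 1 lower at 24 h (16.6% and 17.2%), the last being MYH9, a heavy chain of non-muscle myosin, with -0.42 (SE 0.0827, adjusted p = 0.000611). Of the abscission genes, most of them ESCRT-III subunits that cut the midbody, PC-3 had 2 higher and 3 lower of 17 at 12 h (13% and 14.6% of all genes) and 2 higher and 1 lower at 24 h (8.88% and 10.5%). CT1258 had 4 higher and 4 lower of 12 at 12 h (22.2% and 22.1% of all genes) and 3 higher and 2 lower at 24 h (16.6% and 17.2%). CEP55, which brings ESCRT proteins to the midbody, rose by 2.17 (SE 0.0827, adjusted p = 7.8e-10) in CT1258 at 24 h, and CHMP2A, an ESCRT-III subunit, fell by 1.13 at 12 h (adjusted p = 4.06e-06). The medians of this list at 24 h were -0.09 in PC-3 and -0.03 in CT1258, near those of all genes. LNCaP had 0 called genes in each of the 4 lists at 0.001 in edgeR's quasi-likelihood test. At 0.05 and 12 h it had 2 of 7 and 4 of 7 higher in the lists of recruitment and of motors and 2 of 14 in that of RhoA and myosin. In that of abscission it had 1 higher and 1 lower of 17. Of all 13156 genes 4.52% were higher by this rule, and 1202 were called in either direction. The likelihood ratio test called 2, 2, 1 and 1 genes of these lists higher at 0.001 and 12 h, where it called 571 of all genes in either direction.

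**Figure D5:**
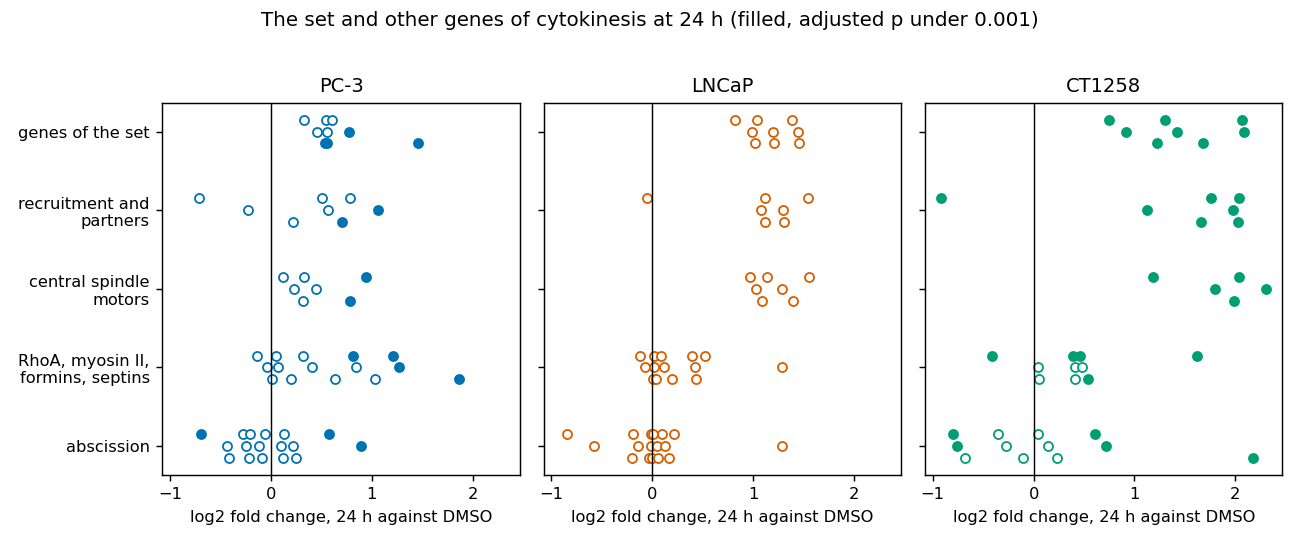
Log2 fold change at 24 h against DMSO of the members and of the 4 other lists in the 3 cell lines; each point is a gene, and filled points had an adjusted p under 0.001 in edgeR's quasi-likelihood test. The members, the recruitment genes and the motors lay mostly above 0, while the abscission genes lay on both sides of 0, with CEP55 apart at 2.17 in CT1258.

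Genes most like the members were sought among the 8257 genes tested in all 3 lines, by the root mean square difference of their 6 log2 fold changes. The closest to the median of the 8 shared members were GPSM2, a spindle orientation protein, at 0.121, BORA, an activator of Aurora A, at 0.167, LYAR at 0.183, CENPA, the histone of centromeres, at 0.187 and TMPO at 0.191. RACGAP1 was the member nearest to this median (0.0702) and ANLN the farthest (0.677). The gene closest to AURKB was SUV39H1 (0.0787), that closest to INCENP was CDC45 (0.123), and that closest to CDCA8 was GPSM2 (0.0889). KIF15 was closest to PRC1 (0.156), GPSM2 to RACGAP1 (0.168), KIF20B to ECT2 (0.102), CDCA2 to ANLN (0.149) and CENPA to CIT (0.197). The 6 values of a gene share control libraries within a line, and the likeness is a description.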

How the data were processed

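The authors deposited raw counts per gene for PC-3, LNCaP and CT1258 in 3 tables. Human reads were aligned with STAR 2.3.1s to hg19 and canine reads with BWA to CanFam3.1, per the labels, and the authors tested them with edgeR 3.14.0. Strand and multi-mapper handling were not given in the sources used here. The PC-3 columns of 2 samples at 12 h were assigned to their group only, since their labels share a name, and trailing semicolons were removed. Counts were filtered by expression, normalised by TMM and tested with edgeR 4.0.16 (R 4.3.3) by the quasi-likelihood test, 1 fit per line over its 3 groups, adjusted by Benjamini-Hochberg over all genes. The threshold of 0.001 is that of the authors. Interactions were fitted over all 9 groups. DESeq2 1.42.0 and limma 3.58.1 served as alternatives. The scripts were tested on simulated data. The authors describe the replicates as independent biological ones of each line. Every member is named; of each other list, the highest and lowest called gene in PC-3 or CT1258 is named, and the further genes named were added after their values were seen. Members and lists were chosen with earlier results of these data known. Markers were those of epithelium, fibroblasts, leukocytes and endothelium; 1 further marker list is not reported here.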

Additional observations from a re-analysis of the deposited data

Results flagged for a closer look

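The difference of PRC1 between PC-3 and CT1258 at 24 h, -1.16 on the log2 scale, is listed because the response of 1 line differed from that of the other in an interaction test (edgeR's quasi-likelihood test, adjusted p = 0.000243). In both lines PRC1 rose, in 3 of 3 treated libraries.

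The difference of INCENP between LNCaP and CT1258 at 12 h, 1.80 on the log2 scale, is listed for the same reason (edgeR's quasi-likelihood test, adjusted p = 0.00035). It was 1.22 without LNCaP PDA-66 12 h replicate 2. The difference had an SE of 0.349 from a spread shared by all 9 groups, compared with 0.395 for the LNCaP change fitted alone.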

How the results depend on the processing

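Of the fitted values of single members under other settings, 2459 kept direction and side of the threshold, 117 came to pass it and 73 no longer passed it. The other 74 had the opposite sign, 0 of them in a comparison with DMSO and each with an adjusted p of at least 0.242. An adjusted p of 0.05 gave 9 members in PC-3 at 12 h and 9 at 24 h, 8 and 2 in LNCaP, 7 for CT1258 at 24 h against 12 h, 5 for PC-3 against LNCaP at 12 h, 2 and 4 for PC-3 against CT1258, 3 and 2 for LNCaP against CT1258, and 6 for the DMSO level. In PC-3 at 12 h, library size alone gave 5, no filter 6, the likelihood ratio test 6, DESeq2 6 and the 2 groups alone 1, compared with 3. Over all genes these settings called 3846, 4212, 5348, 4673 and 2634 in either direction, compared with 3797. In PC-3 at 24 h, limma voom gave 2 and the 2 groups alone 1, compared with 4. Over all genes they called 1968 and 1664, compared with 2665. In LNCaP the likelihood ratio test gave 7 and 2, DESeq2 8 and 2 and limma voom 9 and 9, compared with 0. For CT1258 at 24 h against 12 h, no filter gave 2, the likelihood ratio test 5, DESeq2 5, limma voom 7 and the 2 groups alone 7, compared with 1. Over all genes these settings called 345, 730, 667, 2073 and 1172 in either direction, compared with 211. For PC-3 against CT1258 at 24 h, DESeq2 size factors, the likelihood ratio test and DESeq2 gave 2 each and limma voom with 1 weight per line 4, compared with 1. Over all genes DESeq2 size factors, the likelihood ratio test and DESeq2 called 543, 1023 and 1148, compared with 562. DESeq2 gave 1 each for PC-3 against LNCaP and PC-3 against CT1258 at 12 h and for LNCaP against CT1258 at 24 h. Over all genes it called 921, 1828 and 1037 in these, compared with 419, 1095 and 404. With 1 weight per line, limma voom gave 2 for PC-3 against CT1258 at 12 h and 4 for the DMSO level. The cause of these changes was not tested.

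Calls over all genes also moved when 1 library was left out, in PC-3 at 12 h to 2481 without 12 h replicate 3, compared with 3797. For most of the ranges below the numbers over all genes are not given, so that they describe only how stable the counts were. Leaving out 1 library at a time gave as few as 1 member in PC-3 at 12 h and at 24 h, and 0 in LNCaP, 5 to 7 and 7 to 8 in CT1258, and 0 to 7 for CT1258 at 24 h against 12 h. It gave 0 to 2 for PC-3 against LNCaP and for LNCaP against CT1258 at 12 h, 0 to 1 for both lines against CT1258 at 24 h, and 0 to 5 for the DMSO level.

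Replicate numbers showed no sign of pairing. Same-numbered libraries correlated in their deviations from the group mean by -0.114 to 0.0831 in PC-3, -0.42 to 0.185 in LNCaP and -0.189 to 0.153 in CT1258. Libraries with other numbers correlated by -0.078 to 0.114, -0.2 to 0.452 and -0.211 to 0.208. The deviations come from small groups, and those of the 2 PC-3 controls mirror each other. These correlations therefore cannot settle whether samples were paired. With the replicate number as a block, PC-3 at 24 h gave 1 member and LNCaP against CT1258 at 12 h gave 0. Over all genes these fits called 1563 and 125, compared with 2665 and 1508. The other counts at 0.001 stayed within 1.5 times. At 0.05 the block gave 5 members in LNCaP at 12 h (1.64% of all genes higher) and 0 at 24 h (0.0228%), and for LNCaP against CT1258 at 24 h it lost both PRC1 (adjusted p = 0.0754) and ECT2 (0.0728). ECT2 in PC-3 at 24 h was lost too (0.184). The block could not be fitted for PC-3 at 12 h, whose columns carry no number for 2 libraries, nor for the tests of PC-3 against another line.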
